A study of Mus musculus with 24 samples.

Results

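Tumours treated with entinostat and both checkpoint antibodies (ENT+PD1+CTLA4) were set against tumours treated with entinostat alone (ENT). The samples were chosen by their titles, 4 in each arm and 8 of the 24 in the series. Female FVB-Neu-N mice, aged 7 to 8 weeks, received 50000 NT2.5 cells in the mammary fat pad, and drugs were started 3 days later and given for 3 weeks. ENT mice took entinostat at 5 mg/kg by mouth each day, in 0.5% methylcellulose. ENT+PD1+CTLA4 mice took the same entinostat plus anti-PD-1 and anti-CTLA-4, each at 100 µg per mouse into the peritoneum on several days of each week. All 8 tumours therefore share the mouse strain, the tumour line and entinostat, and what separates them by design is the pair of antibodies. Whether ENT mice also received isotype antibodies is not stated in the labels, which name isotypes for vehicle mice.

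NT2.5 is 1 line derived from a spontaneous mammary tumour and grown from frozen stocks, so the 8 tumours are grafts of the same cells in different hosts. Neu-N mice carry the rat neu proto-oncogene as a self antigen, and their T cells are known to be tolerant to it. The source label reads whole tumour, but the protocol speaks of dissociated suspensions used to isolate immune cells, so the exact input of the assay is not given here. The protocol also states that experiments in this model were run with and without an anti-HER2 antibody; the samples were grouped by their titles alone. Nothing in the labels ties a sample to an animal beyond its being a separate tumour, so p-values reflect only how much these samples vary. In bulk RNA, fewer cells of a type and less RNA per cell cannot be told apart.

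CTLA-4 competes with CD28 for the ligands CD80 and CD86 on antigen-presenting cells and so restrains T cell priming. PD-1 is carried by T cells that have met antigen, and its ligands PD-L1 and PD-L2 on tumour and myeloid cells restrain those T cells within the tissue. Entinostat inhibits class I histone deacetylases and is known to act on suppressive myeloid cells as well as on tumour cells.

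RNA was counted on an nCounter instrument, which counts barcoded probes bound to single RNA molecules, without amplification. The deposited values are counts of each sample multiplied by 1 factor, chosen so that the 20 housekeeping genes have the same geometric mean (346.9) in every sample; they are called normalized counts here. Recovered totals over the 770 genes were 377758 ± 62586 in ENT+PD1+CTLA4 and 395155 ± 36810 in ENT (SD, n = 4 each, exact permutation test, two-sided, p = 0.743). The arms ran on different cartridges of 12 samples: ENT on the first, with vehicle and ENT+PD1, and ENT+PD1+CTLA4 on the second. Treatment and cartridge therefore cannot be told apart in any gene below. The 8 negative control probes, which match no mouse RNA, averaged 5.34 ± 0.359 counts in ENT+PD1+CTLA4 and 8.25 ± 0.872 in ENT (SD, n = 4 each, exact permutation test, two-sided, p = 0.0286, the smallest that 4 against 4 allows). Across all 24 samples the first cartridge lay between 7.00 and 10.9 and the second between 4.00 and 6.00, without overlap. On the normalized scale, with each sample's factor applied, the negative controls averaged 5.14 ± 0.686 in ENT+PD1+CTLA4 and 7.48 ± 1.42 in ENT. There the arms overlapped (SD, n = 4 each, exact permutation test, two-sided, p = 0.0857), as did the cartridges. Weak genes thus start from a floor that is lower on average in ENT+PD1+CTLA4, and how much of a difference in a weak gene this accounts for was not tested. For that reason genes with a normalized count of at least 50 in at least 4 of the 8 tumours (384 genes, called the stronger genes below) are described first.

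**Figure D1:**
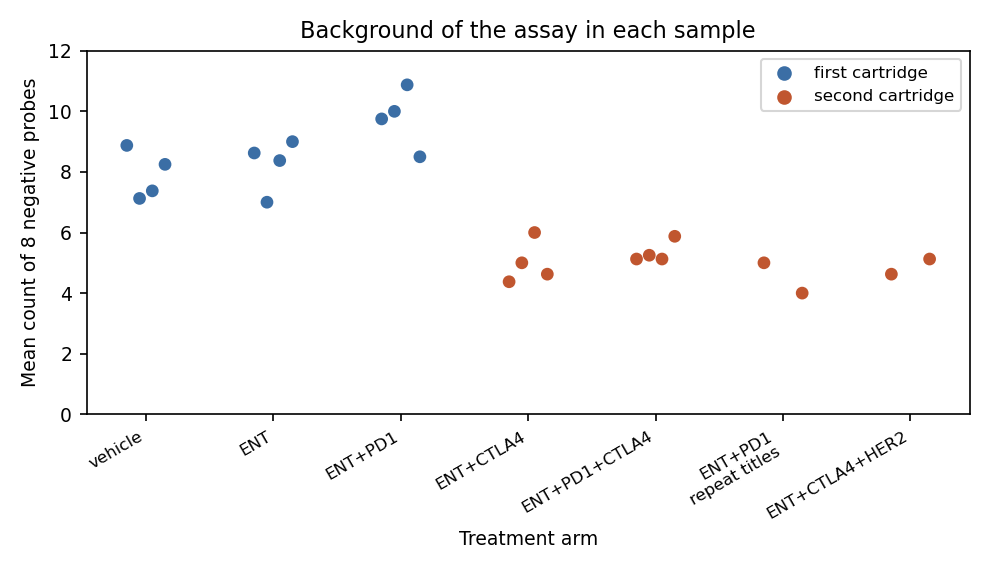
Mean count of the 8 negative control probes in each of the 24 samples, by treatment arm and coloured by cartridge, on a linear axis from 0. The 4 ENT samples lie between 7.00 and 9.00 and the 4 ENT+PD1+CTLA4 samples between 5.12 and 5.88, and no sample of the second cartridge reaches the first.

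The markers of the tumour line were present in every sample. Epcam, Cdh1, Itgb4 and Erbb2, which mark epithelial tumour cells, summed to between 8967 and 9353 in ENT and between 7852 and 10845 in ENT+PD1+CTLA4. All 4 of them exceeded the negative controls by 2 SD in all 8 tumours. Ptprc, which encodes the leukocyte marker CD45, was 122 to 171 in ENT and 151 to 501 in ENT+PD1+CTLA4. The defining genes of lymphocytes were weak: the CD8 chains Cd8a and Cd8b1 exceeded the negative controls in 1 of the 8 tumours, ENT+PD1+CTLA4 replicate 1.

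No gene passed the threshold between the arms. A limma fit over the 621 genes with at least 20 in at least 4 of the 24 samples called 0 of them at a Benjamini-Hochberg adjusted p under 0.05 (0.0%). At an unadjusted p under 0.05 there were 70 genes (11.3%), of which 32 were higher (5.15%) and 38 lower (6.12%) in ENT+PD1+CTLA4. On the counts recovered from the table, edgeR called 0 (98 at unadjusted p under 0.05) and DESeq2 called 0 (90 unadjusted), with 0.0611 as the lowest DESeq2 adjusted p, for Arg2. The 4 tumours of one arm lay wholly above or below the 4 of the other in 61 genes (9.82%), 26 higher (4.19%) and 35 lower (5.64%). Among the 384 stronger genes, 37 had an unadjusted p under 0.05 (9.64%), 25 higher (6.51%) and 12 lower (3.12%). In 40 of them the arms did not overlap (10.4%), 21 higher (5.47%) and 19 lower (4.95%). The median log2 difference over the 621 genes was 0.03. Every difference below is ENT+PD1+CTLA4 minus ENT on the log2(normalized count + 1) scale, given ± SE of the limma fit, and none of them passed.

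**Figure D2:**
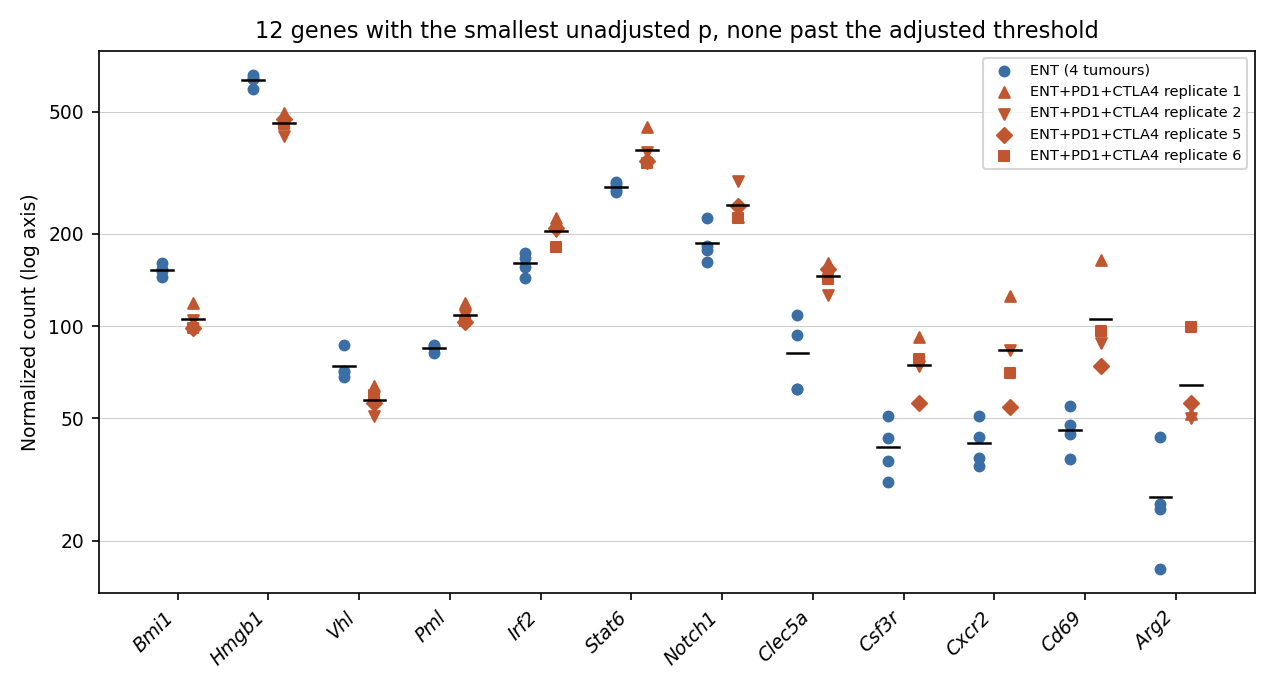
Normalized counts (log axis) of the 12 stronger genes with the smallest unadjusted p, ordered from lower to higher in ENT+PD1+CTLA4. Each point is 1 tumour, the short lines are the means of 4, blue circles are ENT and the red symbols distinguish the ENT+PD1+CTLA4 replicates; the arms overlap in Notch1, where 1 ENT tumour reaches the other arm, and in no other gene of the plot.

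The ENT+PD1+CTLA4 tumours differed more among themselves than the ENT tumours did. Over the 621 genes the median SD of log2 values was 0.385 in ENT+PD1+CTLA4 and 0.202 in ENT, and 101 genes had an SD over 1 in ENT+PD1+CTLA4 against 4 in ENT. The median SD was 0.421 in ENT+PD1, 0.284 in ENT+CTLA4 and 0.271 in vehicle. ENT was thus the tightest of these arms, and ENT+PD1 was wider than ENT+PD1+CTLA4. Replicates 1 and 2 of ENT+PD1+CTLA4 stood at opposite ends: replicate 1 had the highest value of the 8 tumours in 273 genes and replicate 2 the lowest in 272. On the first principal component of the 8 tumours, which took 56.3% of the variance, replicate 1 scored 20.6 and replicate 2 −18.9. The other 6 tumours lay between −4.54 and 3.82. Replicate 1 exceeded replicate 2 by at least 4-fold in 109 genes.

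Replicate 1 was rich in transcripts of lymphocytes. Cd3g, a chain of the T cell receptor complex, was 339 in replicate 1, 18.5, 18.7 and 30.3 in replicates 2, 5 and 6, and 10.7, 14.7, 25.2 and 13.6 in ENT replicates 1 to 4. Ms4a1, which encodes the B cell marker CD20, was 195 in replicate 1 against 7.05 to 10.8 in the other ENT+PD1+CTLA4 tumours and 12.4 to 23.2 in ENT. Ccr7, a homing receptor of naive and central memory T cells and of mature dendritic cells, followed the same order, at 675 in replicate 1 against 19.4 to 62.5 in the other 7 tumours. Replicate 2 was poor in stromal and macrophage chemokine transcripts. Ccl8, a chemokine for monocytes, was 27.3 in replicate 2 and between 265 and 2178 in the other 7, and the collagen Col3a1 was 509 against 4317 to 11341. The endothelial markers Pecam1, Cdh5, Tie1 and Tek summed to 176 in replicate 2, 893 to 1279 in the other ENT+PD1+CTLA4 tumours and 499 to 1030 in ENT. Ccl8 and Col3a1 were chosen for this description after their values were seen. What sets these 2 tumours apart was not tested. Without both of them limma called 0 genes (54 at unadjusted p under 0.05).

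**Figure D3:**
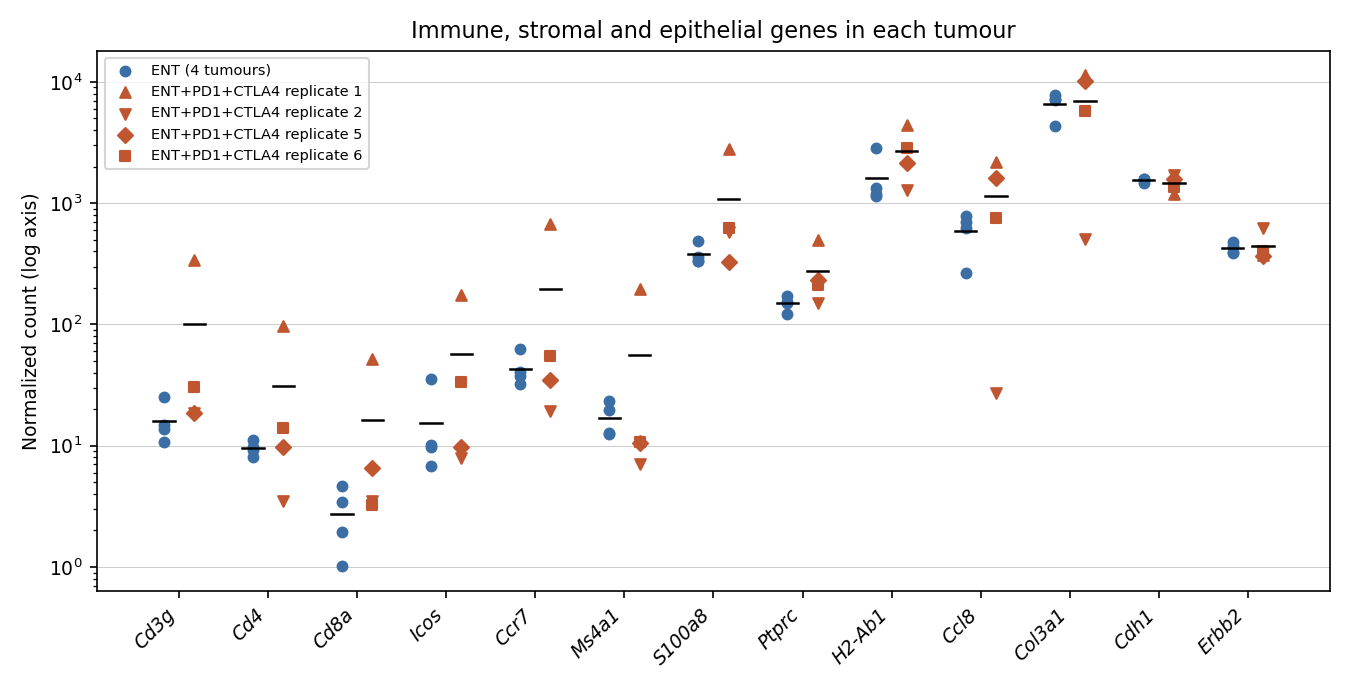
Normalized counts (log axis) of lymphocyte, granulocyte, antigen presentation, stromal and epithelial genes in each of the 8 tumours, with ENT as blue circles, each ENT+PD1+CTLA4 replicate with its own red symbol, and short lines for the means of 4. Replicate 1 (upward triangle) is the highest tumour in the genes from Cd3g to H2-Ab1, and replicate 2 (downward triangle) lies below all others in Ccl8 and Col3a1.

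Pdcd1 and Ctla4, the genes of the antibodies' targets, were weakly expressed, and none of their tested partners passed. Pdcd1, which encodes PD-1, was 6.80, 12.4, 16.1 and 11.1 in ENT and 19.5, 10.6, 7.31 and 15.1 in ENT+PD1+CTLA4 replicates 1, 2, 5 and 6, and it was too weak to test. Ctla4 was 19.4, 6.19, 40.3 and 32.4 in ENT and 112, 14.1, 15.4 and 30.3 in ENT+PD1+CTLA4. Replicate 1 alone lay above the ENT range, and the log2 difference of 0.53 ± 0.74 became −0.10 without it. Cd274, which encodes PD-L1, was 35.5 ± 12.8 in ENT and 52.0 ± 15.1 in ENT+PD1+CTLA4 (SD, n = 4 each; difference 0.56 ± 0.43), and the arms overlapped. Pdcd1lg2, which encodes PD-L2, was 18.9 ± 3.30 against 13.5 ± 7.44 (−0.58 ± 0.47), which became 0.01 with a floor of 20. Cd80 and Cd86, the ligands shared by CTLA-4 and CD28, were 46.7 ± 8.00 against 75.3 ± 32.3 (0.58 ± 0.49) and 105 ± 11.98 against 129 ± 48.3 (0.22 ± 0.34). Cd28 itself was 41.7 ± 6.00 against 35.0 ± 18.1 (−0.35 ± 0.33) and the costimulator Icos 15.5 ± 13.3 against 56.6 ± 79.9 (1.03 ± 1.06), with 175 in replicate 1. Across the 16 tested genes of checkpoint receptors and ligands 6 were higher and 10 lower, with a median of −0.04 beside 0.03 for all genes tested. With cartridge as a block, which can be fitted only through a pair of samples with repeated titles, 12 of the 16 were higher with a median of 0.815, beside 0.436 for all genes. The block sets that pair against the ENT+PD1 tumours of the first cartridge. Over all tested genes ENT+PD1 replicates 1, 2, 5 and 6 stood at 0.058, 0.049, 0.563 and 0.638 from the ENT mean. The pair stood at −0.139 and −0.02. Block values here and below therefore also carry the spread among the ENT+PD1 tumours.

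T cell genes were higher in 1 tumour rather than in the arm. Of 12 tested genes of the T cell receptor and surface, 11 were higher and 1 lower, with a median of 0.60. The median difference from the ENT mean was 3.31 in replicate 1 and −0.58, −0.45 and 0.30 in replicates 2, 5 and 6. Without replicate 1 the list median was −0.28 and 2 of the 12 were higher; without replicates 1 and 2 it was −0.03 with 6 higher. Cd4, of helper T cells, was 96.2 in replicate 1 and between 3.53 and 14.1 in the other 7 tumours, and Cd8a was 51.9 against 1.01 to 6.50. Foxp3, the factor of regulatory T cells, was 21.6 in replicate 1 against 1.55 to 11.9. The 5 defining T cell markers Cd3d, Cd3e, Cd3g, Cd2 and Cd5 summed to 863 in replicate 1, to 56.8 to 87.6 in the other 3 tumours of its arm and to 61.2 to 113 in ENT.

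Effector genes of cytotoxic cells did not follow the T cell receptor genes. All 5 tested genes of that list were lower, with a median of −0.27, and none passed. The list differed by −0.24 between the cartridges in other treatment arms (described below), and with cartridge as a block its median was 0.15 with 3 of 5 higher. Ctsw, a cathepsin of cytotoxic lymphocytes, was 148, 155, 149 and 215 in ENT and 137, 110.2, 150.2 and 102 in ENT+PD1+CTLA4 (−0.41 ± 0.22, adjusted p = 0.480 in limma), so 1 tumour of the second arm lay within the range of the first. Ifng was 13.5 ± 5.81 against 9.02 ± 3.60 (−0.54 ± 0.48), and Gzmb was 4.03 to 5.83 in ENT and 4.06 to 7.57 in ENT+PD1+CTLA4, below 2 SD over the negative controls in all 8. Cxcl9, a chemokine induced by interferon gamma, was 11.7 ± 7.99 against 12.6 ± 6.77 (0.23 ± 0.72). NK receptors had 5 of 14 genes higher and a median of −0.46, but all 14 lay under the 50-count mark in most of the tumours, and the same list differed by −0.66 between the cartridges in those other arms. With cartridge as a block 13 of the 14 were higher, with a median of 0.465.

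Of 16 tested genes of T cell fate and activation 12 were higher, with a median of 0.25. Without replicate 1 the list median was −0.001 with 8 of the 16 higher, and without replicates 1 and 2 it was 0.113 with 10 higher. Relative to the ENT mean the list stood at 0.647, 0.012, 0.115 and −0.044 in replicates 1, 2, 5 and 6. The vehicle tumours stood at 0.09 to 0.39. Cd69 had the smallest p among the 16. It encodes an early activation antigen of lymphocytes that is also found on other leukocytes. It was 36.9, 55.0, 44.4 and 47.7 in ENT and 164, 88.2, 73.9 and 96.2 in ENT+PD1+CTLA4. All 4 tumours of the combined treatment lay above all 4 ENT tumours, with a difference of 1.13 ± 0.39 (limma adjusted p = 0.332). It was 0.90 without replicate 1 and 0.88 without replicates 1 and 2. In ENT+CTLA4 Cd69 lay between 75.7 and 132, and the difference between the arms on that shared cartridge was −0.01 ± 0.39. The weaker Batf, whose AP-1 family protein acts in activated T and B cells, was 20.4, 20.1, 20.2 and 11.9 against 42.2, 22.04, 25.99 and 40.01 (0.79 ± 0.28, limma adjusted p = 0.346), also without overlap, and was picked with its values known. Among the stronger genes of the list Egr1, an immediate early gene, was 2006 ± 172 against 2702 ± 715 (0.40 ± 0.22), with 1969 in replicate 6 inside the ENT range.

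Neutrophil genes stood above the ENT mean in all 4 tumours of the combined treatment, most of all in replicate 1. This was not particular to that arm. The list also stood above the ENT mean in every tumour of vehicle (0.01 to 0.48), ENT+PD1 (0.16 to 1.16) and ENT+CTLA4 (0.50 to 0.77). Vehicle shared the cartridge of ENT. Its Cxcr2 lay between 57.9 and 89.9, above all ENT values, and its Csf3r, between 40.1 and 76.4, overlapped ENT. Of 15 tested neutrophil and granulocyte genes 11 were higher, with a median of 0.43, and in 4 of them (Cxcl2, Clec5a, Csf3r and Cxcr2) the arms did not overlap, where 4.19% of all tested genes were separated upward. Cxcr2, the receptor that draws neutrophils along chemokine gradients, was 35.0, 37.2, 43.4 and 51.1 in ENT and 125, 83.8, 54.4 and 70.3 in ENT+PD1+CTLA4 (0.93 ± 0.31, limma adjusted p = 0.303). Csf3r, the receptor for granulocyte colony-stimulating factor, was 31.1, 43.4, 36.3 and 51.1 against 91.9, 74.0, 56.0 and 77.9 (0.88 ± 0.29, adjusted p = 0.303). For both receptors the lowest tumour of the combined treatment, replicate 5, stood just above the highest ENT tumour, replicate 4.

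Clec5a, a lectin receptor of myeloid cells that signals through DAP12, was 62.2, 109, 62.5 and 93.7 in ENT and 160.1, 126, 153 and 143 in ENT+PD1+CTLA4 (0.86 ± 0.28, limma adjusted p = 0.281). The arms did not overlap, and the 4 tumours of the combined treatment lay close together. Cxcl2, a ligand of CXCR2, was 424 ± 89.3 against 637 ± 63.1 (0.60 ± 0.30), and Cxcl5, another ligand of the same receptor, was 73.9 ± 16.0 against 54.2 ± 15.1 (−0.46 ± 0.23). The alarmin S100a8 was 333, 336, 357 and 491 in ENT and 2776, 578, 328 and 629 in ENT+PD1+CTLA4. Its difference of 1.02 ± 0.54 was 0.40 without replicate 1, and replicate 5 lay below all ENT tumours. Without replicates 1 and 2 the differences were 0.57 for Cxcr2, 0.72 for Csf3r and 0.89 for Clec5a, and the list median was 0.28 with 11 of 15 higher.

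The arginases were higher and the inducible nitric oxide synthase lower in ENT+PD1+CTLA4. These enzymes compete for arginine and are used as marks of suppressive and inflammatory myeloid cells. Arg2, the mitochondrial arginase, was 25.3, 26.3, 43.4 and 16.2 in ENT and 51.9, 50.2, 56.0 and 99.5 in ENT+PD1+CTLA4. All 4 tumours of the combined treatment exceeded all 4 of ENT, by 1.21 ± 0.32 (limma adjusted p = 0.208, the lowest of the 621 genes, shared by 4). It was 1.29 without replicate 1, 1.31 without replicate 2 and 1.48 without both. Arg1, the cytosolic arginase of suppressive macrophages, was 149, 191, 201 and 195 against 421, 218, 309 and 259.6 (0.68 ± 0.41, adjusted p = 0.511), also without overlap. Nos2 was 30.1, 22.4, 37.3 and 29.8 in ENT and 20.6, 14.99, 21.1 and 16.2 in ENT+PD1+CTLA4 (−0.68 ± 0.21, adjusted p = 0.281), and the highest tumour of the second arm lay just below the lowest of the first.

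The wider list of suppressive myeloid genes holds the arginases, Nos2 and S100a8. Of its 17 tested members, 14 were higher and 3 lower, with a median of 0.27. The transcription factor Cebpb, which drives emergency granulopoiesis and arginase expression, was 1199 ± 114 against 1440 ± 92.7 (0.27 ± 0.12, limma adjusted p = 0.424), with 1 of the 4 combined tumours below the highest ENT tumour. Itgam, which encodes the integrin CD11b of myeloid cells, was 59.3, 72.8, 69.6 and 80.9 in ENT and 133, 70.5, 96.6 and 112 in ENT+PD1+CTLA4 (0.51 ± 0.34, adjusted p = 0.554). Replicate 2 lay inside the ENT range.

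Macrophage genes were low in replicate 2, which was poor in stromal transcripts, and above the ENT mean in the other 3 tumours of the arm. Of 18 tested macrophage and monocyte genes 15 were higher, none of them separated, with a median of 0.21. By tumour the list stood at 0.63 in replicate 1, −0.65 in replicate 2, 0.61 in replicate 5 and 0.26 in replicate 6, relative to the ENT mean. Replicate 2 had the lowest value of the 8 tumours in 14 of the 18 genes. Without replicates 1 and 2 the median was 0.44 with 17 of 18 higher. Cx3cr1, the fractalkine receptor of resident macrophages, was 234 ± 36.4 against 302 ± 84.7 (0.34 ± 0.27), and 0.67 without those 2 tumours. The receptors for IgG followed: 6 of 7 genes of the Fc receptor list were higher, with a median of 0.385, and Fcgr4, the activating receptor for IgG2 antibodies, was 51.5, 46.4, 52.4 and 66.5 against 81.1, 61.7, 81.2 and 83.3 (0.50 ± 0.24, limma adjusted p = 0.436). Its kinase partner Syk was 88.3 ± 19.6 against 146 ± 62.2 (0.64 ± 0.38). The atypical chemokine receptor Ccrl2 was 509, 540.3, 573 and 658 against 1117, 738, 759 and 755 (0.55 ± 0.29, adjusted p = 0.481), with no overlap.

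MHC class II genes stood above the ENT mean in 3 of the 4 combined tumours but overlapped with ENT. The list also stood above that mean in every tumour of ENT+PD1 (0.08 to 2.56) and of ENT+CTLA4 (0.035 to 0.70). In vehicle it ran from −0.31 to 0.57. Class II chains present peptides to helper T cells, and MHC class II and its processing genes had 8 of 9 tested members higher, with a median of 0.60. H2-Ab1, the class II beta chain, was 1188, 1326, 2829 and 1143 in ENT and 4429, 1282, 2137 and 2860.4 in ENT+PD1+CTLA4 (0.69 ± 0.54, limma adjusted p = 0.612). Cd74, the invariant chain that escorts class II to the endosome, was 3409 ± 1428 against 5596 ± 2497 (0.69 ± 0.51). In both genes ENT replicate 3 reached the range of the second arm and replicate 2 fell within that of ENT. For class I, 8 of 13 genes were higher with a median of 0.12: H2-K1, a classical heavy chain, was 1094 ± 33.8 against 1354 ± 270 (0.29 ± 0.18). Tap2, a chain of the peptide transporter, was 76.8, 84.4, 72.6 and 89.5 against 108, 111, 91.8 and 95.2 (0.33 ± 0.19), without overlap. Psmb8, the immunoproteasome subunit LMP7, was 507 ± 45.2 against 668 ± 155 (0.38 ± 0.19), and Psmb7, a constitutive subunit that the immunoproteasome replaces, was 1095 ± 79.9 against 930.2 ± 47.2 (−0.23 ± 0.09, adjusted p = 0.411). Both were separated, in opposite directions. Of the 5 tested subunits Psmb8 was the 1 that was higher and 4 were lower, with a median of −0.16, which was 0.30 with 3 of 5 higher with cartridge as a block.

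Of 27 tested type I interferon genes 11 were higher and 16 lower, with a median of −0.05, and 8 of the 13 stronger members were higher. The arms were separated upward in 1 of the 27 and downward in 4, beside 4.19% and 5.64% of all tested genes. With cartridge as a block 25 of the 27 were higher and the median was 0.51, beside 0.436 for all genes. Those with the smallest p among the stronger genes were higher: Ifitm1, which blocks viral entry, was 121, 138, 115 and 141 in ENT and 261, 176, 173 and 222 in ENT+PD1+CTLA4 (0.67 ± 0.28, limma adjusted p = 0.411), and Ddx58, which encodes the RNA sensor RIG-I, was 157 ± 25.7 against 192 ± 22.1 (0.30 ± 0.13). Outside the list, Irf2, a regulator that restrains interferon genes, was 156, 167, 173 and 144 against 225, 204, 209.5 and 182 (0.35 ± 0.12, adjusted p = 0.303). Pml, the scaffold of nuclear bodies and also outside the list, was 81.6, 85.9, 84.7 and 86.9 against 119, 108, 103 and 104 (0.35 ± 0.12, adjusted p = 0.332). Irf2, Pml and Ifitm1 were each separated between the arms. Irf1 was 488 ± 98.2 against 592 ± 55.8 (0.30 ± 0.17).

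Some weak genes were lower instead: the interferon genes Oas3 and Usp18 and, outside that group, Klrb1, Gfi1 and Klra7. All of these were chosen after their values were seen. Oas3, which senses double-stranded RNA, was 21.4, 16.3, 22.2 and 19.6 in ENT and 10.8, 9.70, 4.06 and 7.57 in ENT+PD1+CTLA4 (−1.27 ± 0.32, limma adjusted p = 0.208). It exceeded the negative controls by 2 SD in 4 of 4 ENT tumours and 0 of 4 combined tumours, so the size of its difference is not measured. Usp18, a brake on interferon receptor signalling, was 30.1, 24, 31.3 and 32.4 against 18.4, 10.6, 12.2 and 17.3 (−0.99 ± 0.28, adjusted p = 0.236), and stood above the controls in all 8. The NK lectin receptor Klrb1 was 13.3 ± 2.33 against 7.14 ± 1.36 (−0.82 ± 0.26), below 2 SD over the negative controls in all 8. Gfi1, a repressor in granulocyte and lymphoid development, was 19.7 ± 5.24 against 7.595 ± 3.83 (−1.34 ± 0.35, adjusted p = 0.208). That combined mean lay below the level 2 SD over the negative controls of each combined tumour (8.54 to 12.5). The size of the Gfi1 difference is therefore not measured, and with cartridge as a block the fit gave −0.385 ± 0.536. Klra7, of the Ly49 receptors of NK cells, was 13.6, 4.64, 21.2 and 14.5 in ENT and 10.8, 1.00, 1.00 and 1.08 in ENT+PD1+CTLA4, where 1.00 is the lowest value the table holds. Leaving out replicate 1 made Klra7 the single gene that passed in any alternative run (−2.68, adjusted p = 0.0254). It exceeded the negative controls in 1 of the 8 tumours, and probes for Ly49 genes can bind near-identical relatives, so neither its identity nor the size of its difference is settled.

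Of 12 tested JAK, STAT and SOCS genes, which carry and limit cytokine signals, 10 were higher, with a median of 0.21. The list stood at 0.52, −0.06, 0.23 and 0.11 in replicates 1, 2, 5 and 6, relative to the ENT mean. This was not particular to the arm. It also stood above the ENT mean in every tumour of vehicle (0.09 to 0.38), on the cartridge of ENT, and of ENT+CTLA4 (0.15 to 0.26). In ENT+PD1 it ran from −0.09 to 0.54. Stat6, which carries the signal of IL-4 and IL-13 and favours arginase-expressing macrophages, was 274, 295, 290.4 and 279 in ENT and 444, 369, 345 and 339.6 in ENT+PD1+CTLA4 (0.39 ± 0.12, limma adjusted p = 0.275). The arms did not overlap, and the difference was 0.27 without replicates 1 and 2. In vehicle Stat6 lay between 310 and 381, also above all ENT values. Jak2 was 272 ± 43.6 against 351 ± 44.9 (0.37 ± 0.16). Among cytokine receptors, Il17ra was 124 ± 5.32 against 158 ± 32.4 (0.32 ± 0.15), and Il10ra was 41.1 ± 9.04 against 65.3 ± 16.2 (0.65 ± 0.31), both separated. Under quantile normalization the JAK and STAT median was 0.05.

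Among the stronger genes that were lower, Hmgb1 and Bmi1 had the smallest p. Hmgb1, a chromatin protein that acts as an alarmin when released, was 657, 646, 594 and 639.9 in ENT and 496, 417, 472 and 457 in ENT+PD1+CTLA4. All 4 ENT tumours lay well above all 4 combined tumours, and the difference was −0.46 ± 0.11 (limma adjusted p = 0.208), −0.45 without replicates 1 and 2. With cartridge as a block the Hmgb1 difference was −0.008 ± 0.178. Bmi1, a Polycomb repressor of stem and tumour cell renewal, was 154, 151, 160.4 and 145 against 119, 105, 98.3 and 98.4 (−0.54 ± 0.16, adjusted p = 0.275). The values of both genes were tight within each arm. Hdac3, a target of entinostat that also belongs to the 20 genes used for scaling, was 440 ± 33.7 against 429 ± 48.9 (−0.04 ± 0.12). Of 9 tested chromatin and acetylation genes 2 were higher and 7 lower, with a median of −0.06.

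Rps6, a ribosomal protein downstream of mTOR, was 248 ± 19.6 in ENT against 190.3 ± 6.68 in ENT+PD1+CTLA4 (−0.38 ± 0.17), and Vhl, which marks hypoxia-inducible factors for degradation, was 74.3 ± 8.43 against 57.6 ± 5.37 (−0.36 ± 0.13, limma adjusted p = 0.346). Both were separated between the arms. Notch1, a receptor of cell fate decisions, went the other way, at 161, 176, 226 and 182 against 227, 297, 247 and 225 (0.42 ± 0.15, adjusted p = 0.380).

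Epithelial genes of the tumour line differed little between the arms in the main comparison. Erbb2, the mouse probe for HER2, was 389, 444, 476 and 393 in ENT and 376, 622, 369 and 402 in ENT+PD1+CTLA4 (0.03 ± 0.17), and whether it also binds the rat neu transcript is not given in the sources used here. Epcam was 5823 ± 99.7 against 5729 ± 875 (−0.04 ± 0.15) and Cdh1, which encodes E-cadherin, 1549 ± 55.1 against 1454 ± 234 (−0.10 ± 0.14). Replicate 2, with the lowest sums of macrophage and of endothelial markers, was the highest of the 8 in all of these 3 genes. Of 10 tested epithelial genes 3 were higher and 7 lower, with a median of −0.03. With cartridge as a block 2 of the 10 were higher, with a median of −0.348 beside 0.436 for all genes. In that fit Cdh1 was −0.602 ± 0.212, Epcam −0.515 ± 0.234 and Erbb2 −0.357 ± 0.263. Spp1, the secreted osteopontin and the strongest of the named genes, was 45923, 42743, 52325 and 41935 in ENT and 32778, 41788, 36649 and 29604 in ENT+PD1+CTLA4 (−0.38 ± 0.22, limma adjusted p = 0.497), separated by a narrow gap. The growth factor Pdgfc was 537 ± 39.2 against 416 ± 68.7 (−0.38 ± 0.15) and the integrin Itgb3 226 ± 4.29 against 199.7 ± 16.2 (−0.18 ± 0.10).

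**Figure D4:**
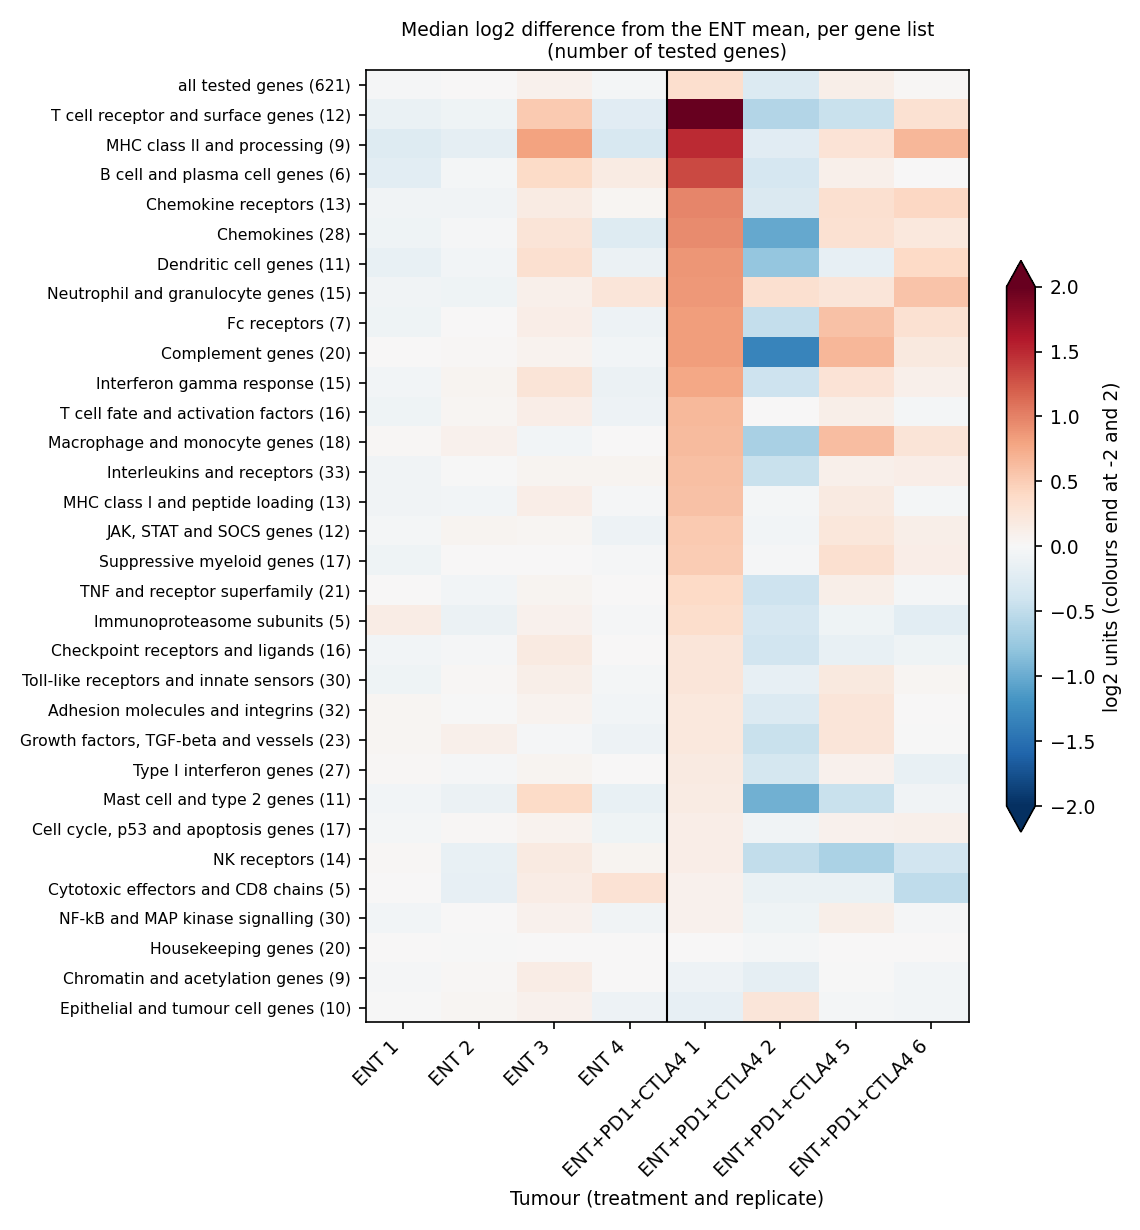
Median log2 difference from the mean of the 4 ENT tumours over the tested genes of each list (rows, number of genes in brackets), for each of the 8 tumours (columns), with a colour scale that ends at −2 and 2. Most lists of immune cells are red in ENT+PD1+CTLA4 replicate 1 and several are blue in replicate 2, while the neutrophil list is above 0 in all 4 tumours of that arm (0.87, 0.32, 0.25 and 0.57 in replicates 1, 2, 5 and 6).

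A difference between the cartridges was also measured where neither ENT nor ENT+PD1+CTLA4 took part. It is the mean of ENT+CTLA4 and of 2 further samples titled as ENT+PD1 replicates 1 and 2 (all on the second cartridge) minus the mean of vehicle and ENT+PD1 (on the first). The labels do not say whether these 2 are the ENT+PD1 tumours of the same titles run again, in which case the same tumours stand on both sides. Treatment differs in it too, so it is a description and not a correction. Across the 621 genes it correlated with the main difference at Pearson's r = 0.456 (Spearman's rho = 0.357), with r = 0.305 over the 384 stronger genes and 0.522 over the 237 weaker ones. The points share the panel, the scaling and the split into cartridges, and genes are not independent. Of the 70 genes with an unadjusted p under 0.05, 60 had the same sign in it, 35 of 38 lower and 25 of 32 higher genes.

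For the leading genes the values across cartridges were as follows. Among the lower genes, Hmgb1 differed by −0.29 ± 0.09 there beside −0.46 in the main comparison, Bmi1 by −0.35 ± 0.12 beside −0.54, and Vhl by −0.38 ± 0.10 beside −0.36. Nos2 differed by −0.63 ± 0.17 beside −0.68, and Usp18 by −1.36 ± 0.23 beside −0.99. For Vhl and Nos2 both values lay within 1 SE of each other. Oas3 was lower there too, with no measured size. Pdgfc, at 0.004 ± 0.118 beside −0.38, and Spp1, at −0.013 ± 0.175 beside −0.38, were nearer to 0 there; this pair was picked with its values known.

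Among the higher genes, Cd69 differed by 0.53 ± 0.31 across the cartridges in other arms, Clec5a by 0.46 ± 0.22, Csf3r by 0.40 ± 0.26 and Cxcr2 by 0.26 ± 0.27. Irf2, at 0.26 ± 0.09, and Pml, at 0.25 ± 0.10, came near to their main differences of 0.35 each. Arg2 stood at 0.01 ± 0.26 beside 1.21, Stat6 at 0.12 ± 0.09 beside 0.39, and Notch1 at 0.05 ± 0.12 beside 0.42. Arg1 had the opposite sign, −0.62 ± 0.32 beside 0.68. Some of these genes were also higher in vehicle, on the cartridge of ENT, than in ENT. The Stat6 mean was 343 in vehicle, 284.5 in ENT and 374.6 in ENT+PD1+CTLA4. For Notch1 the means were 234.6, 186.5 and 249, and for Arg2 38.6, 27.8 and 64.4, in the same order. The ENT+PD1 mean, which enters the difference across cartridges, was 485 for Arg1 and 82.8 for Arg2, above vehicle at 191 and 38.6. The tumours of these arms overlapped in both genes. Arg1 ran from 165 to 862 in ENT+PD1 and from 151 to 287 in vehicle, and Arg2 from 50.6 to 117 and from 32.0 to 52.1.

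**Figure D5:**
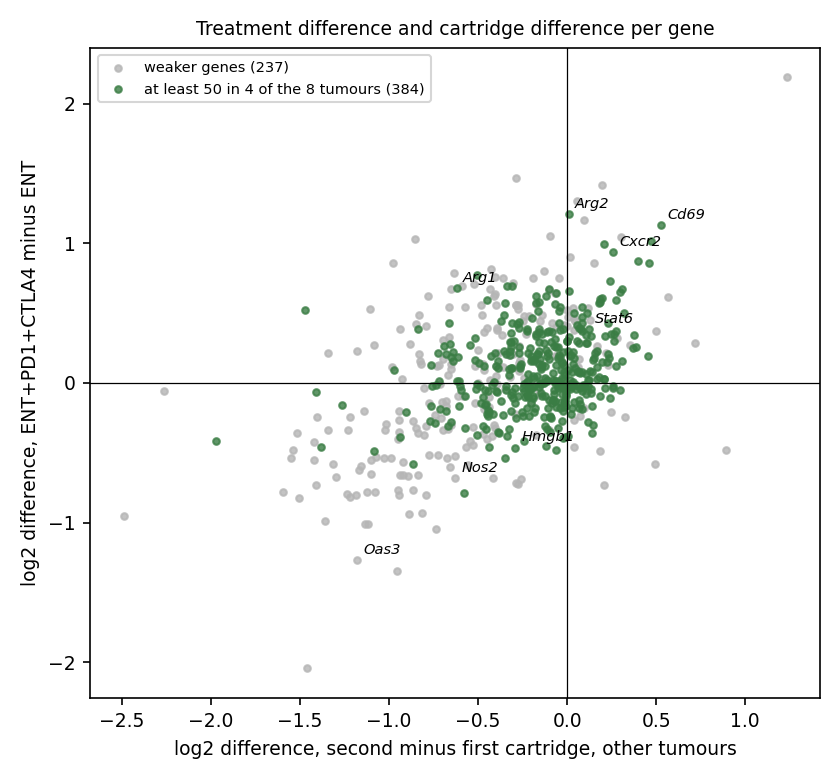
Log2 difference of ENT+PD1+CTLA4 minus ENT (vertical axis) against the difference of the second minus the first cartridge in other tumours (horizontal axis), 1 point per tested gene, green for the 384 stronger and grey for the 237 weaker genes. The weaker genes trail to the lower left, where Oas3 lies, while Arg2 lies near 0 on the horizontal axis and Arg1 on the left of the upper part.

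On the second cartridge itself, ENT+PD1+CTLA4 was set against ENT+CTLA4 (4 tumours each, so that anti-PD-1 is the difference by design). The arm ENT+PD1+CTLA4 is shared with the main comparison. Limma called 0 of 621 genes (0.0%), and 10 had an unadjusted p under 0.05 (1.61%). Of the leading genes, Hmgb1 stood at −0.10 ± 0.11, Stat6 at −0.01 ± 0.12, Irf2 at −0.01 ± 0.12, Cxcr2 at −0.22 ± 0.31, Csf3r at −0.15 ± 0.29 and Clec5a at −0.27 ± 0.28. In ENT+CTLA4, Clec5a lay between 149.98 and 197 and Cxcr2 between 70.3 and 111, above the 4 ENT values of either gene. Arg1 was 128 to 248 in ENT+CTLA4, a difference of 0.88 ± 0.41, and Arg2 stood at 0.35 ± 0.32. Cd4 stood at 0.92 ± 0.79, Pdcd1lg2 at 0.69 ± 0.47 and Fcgr4 at −0.42 ± 0.24. Neither of the arginases passed (limma adjusted p = 1.0 each).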

How the data were processed

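Tumour RNA was counted on an nCounter panel. The series title and the table name a PanCancer Immune panel and the label protocol a myeloid one; the gene names are those of the table. The deposited table holds normalized signal on a linear scale and control probes as unscaled counts, per the file headers. Limma is the only tool listed, per the submitters' processing notes, without its role or version. With 1 factor per sample, whole counts were recovered for 100% of the deposited values above 1 (tolerance 0.05); 82 values at exactly 1 were read as raised to that floor. No background subtraction was visible. Recovered totals ran from 308488 to 460535 over the 8 tumours.

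Samples were grouped by title. Analysis was on log2(value + 1), which shrinks the differences of weak genes, and 621 of 770 genes with at least 20 in at least 4 of the 24 samples were tested. One limma fit (version 3.58.1, R 4.3.3; lmFit, eBayes with trend) covered 22 samples in 6 groups, leaving out the pair whose titles repeat ENT+PD1 replicates 1 and 2, and p-values were adjusted by Benjamini-Hochberg over all 621 genes (threshold 0.05). The counts recovered were tested with edgeR 4.0.16 (quasi-likelihood) and DESeq2 1.42.0 as alternatives. The control probes and totals were compared by exact permutation. Replicate numbers did not enter as pairs. Scripts were tested on simulated data.

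Genes named were the 12 with the smallest p among those with at least 50 in at least 4 of the 8 tumours, the 5 largest differences in each direction among those without overlap, up to 2 members of each of 30 gene lists, and fixed genes of the PD-1, CTLA-4, T cell and myeloid systems; not every gene so selected is reported here. The samples, lists and rule were chosen with earlier results of these data known, so counts over lists are descriptions. Markers of cell types were listed with them.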

Additional observations from a re-analysis of the deposited data

Results flagged for a closer look

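Single tumours stood far from the other 3 of their arm in 23 of 146 sets of 4 values (2 arms, all genes examined). The criterion (the gap to the nearest tumour over the range) flags about 1 set in 20 of normally distributed values, about 7.3 here. It was applied to values without log transformation, and several of the genes were picked with their values known. The 7.3 is therefore not a chance expectation for these genes, and no excess is read from it. The genes are not independent, and 11 of the flags belonged to ENT+PD1+CTLA4 replicate 1 as the highest tumour. In that tumour Cd3g was 338.51 (18.51 to 30.28 in the other 3), Cd4 96.25 (3.53 to 14.06), Cd8a 51.91 (3.24 to 6.5), Icos 175.2 (7.93 to 33.53) and Ctla4 112.48 (14.11 to 30.28). Among its genes of lymphocyte homing and adhesion, Ccr7 was 674.85 (19.39 to 55.15) and Selplg, the ligand of P-selectin, 400.15 (88.16 to 130.86). The B cell gene Ms4a1 was 194.67 (7.05 to 10.81), the alarmin S100a8 2776.19 (328.08 to 629.41), the chemokine receptor Ccrl2 1117.18 (737.87 to 759.29) and the Ly49 receptor Klra7 10.81 (1.0 to 1.08).

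Replicate 2 of the same arm was low for Fcgr4 at 61.71 (81.11 to 83.27 in the other 3) and high for Erbb2 at 622.39 (369.49 to 402.3). Replicate 6 was high for Arg2 at 99.49 (50.25 to 56.03).

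Among the ENT tumours, replicate 3 was flagged 5 times, for Icos at 35.3 (6.82 to 10.06 in the other 3), H2-Ab1 at 2828.78 (1142.53 to 1325.98), H2-K1 at 1144.62 (1075.96 to 1078.63), Vhl at 86.73 (68.16 to 71.21) and Epcam at 5971.19 (5761.46 to 5795.46). Replicate 4 was high for Ctsw at 214.7 (147.68 to 154.81) and S100a8 at 490.75 (333.25 to 357.0) and low for Batf at 11.93 (20.13 to 20.4), and replicate 2 was low for Pdgfc at 479.15 (551.64 to 564.88).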

How the results depend on the processing

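The count of genes called between ENT+PD1+CTLA4 and ENT was 0 under every alternative run except 1, ranging from 0 to 1 when single tumours were left out (1 without ENT+PD1+CTLA4 replicate 1, Klra7), and against ENT+CTLA4 it was 0 in each. With the replicate block it was 0, with 34 genes at unadjusted p under 0.05. The 2 numbers that the arms share gave correlations of −0.150 and −0.228 between same-numbered tumours. Tumours with different numbers ran from −0.396 to 0.39, so these 2 values cannot decide whether the numbers pair the tumours. Other unadjusted counts ran from 36 (genes with at least 50 in 4 of the 8 tumours) to 106 (cartridge block, estimable through the pair with repeated titles alone). Values with that block also carry the spread among the ENT+PD1 tumours set against the pair. Subtraction of the negative control mean (61 unadjusted, 39 higher and 22 lower) and the fit without both tumours that stand apart (54) were added after seeing the data. Of the 69 genes examined, 51 kept their sign throughout, but a kept sign is not a kept size. With the cartridge block Hmgb1 was −0.008, Irf2 0.043, Pml 0.048, Rps6 −0.073, Vhl −0.098 and Nos2 −0.135, all smaller in size than in the main comparison. Arg2 (1.531), Arg1 (1.701) and Cd69 (1.355) were larger with that block. With the cartridge block the sign turned for Pdcd1lg2 (0.709), Cd28 (0.67), Ifng (0.474), Tap2 (−0.008), Oas3 (0.068), Usp18 (0.51), Klrb1 (0.254), Ccl8 (2.528), Col3a1 (0.983) and Erbb2 (−0.357), while the median of all genes moved to 0.436. In the same fit the medians of 10 of the 12 gene lists below 0 turned above it, and 0 of the 18 above 0 turned below. The replicate block turned Cd86 (−0.081), Cxcl9 (−0.209), Hdac3 (0.013) and Epcam (0.054). Without both tumours that stand apart, Hdac3 (0.064), Ms4a1 (−0.572), Ccl8 (1.014), Col3a1 (0.258) and Erbb2 (−0.136) turned. A floor of 20 turned Pdcd1lg2 (0.009), a pseudocount of 10 Ccl8 (0.016), median rescaling Erbb2 (−0.009) and quantile normalization Erbb2 (−0.105). On counts, edgeR with TMM turned Hdac3 (0.001), Ccl8 (0.819) and Epcam (0.03), edgeR with housekeeping factors Ccl8 (0.952) and Col3a1 (0.081), and DESeq2 Ccl8 (0.787). With single tumours left out, signs turned for Ctla4 (range −0.1 to 0.87), Cd4 (−0.218 to 1.257), Cxcl9 (−0.284 to 0.616), Hdac3 (−0.097 to 0.042), Ccr7 (−0.315 to 1.368), Ms4a1 (−0.751 to 0.784), Ccl8 (−0.75 to 1.338), Col3a1 (−1.047 to 0.445), Erbb2 (−0.147 to 0.103) and Epcam (−0.131 to 0.04). The causes were not tested. Genes near the negative controls have no measured size of difference, and the number of tumours limits every estimate.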
